A study of Mus musculus with 4 samples.

Results

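The cells described here are epithelial cells of the mammary duct that carry receptors for female hormones and, in addition, transcripts of Upk3a or Fgb. They numbered 609 of the 15721 cells kept in the series: 136 in cold replicate 1, 137 in cold replicate 2, 303 in room-temperature replicate 1 and 33 in room-temperature replicate 2. A cell was taken if, per 10000 of its unique molecular identifiers (UMIs, each standing for 1 captured transcript), Prlr, Esr1, Pgr and Cited1 together reached 2, Elf5, Kit, Csn3, Aldh1a3 and Wfdc18 together stayed under 2, and Upk3a and Fgb together reached 1. It also needed at least 4 UMIs of Krt8 and Krt18 together and none of Ptprc, the pan-leukocyte gene CD45. The 676 cells that passed every condition but had Upk3a and Fgb under 1 per 10000 UMIs are called the other hormone-sensing cells (320 and 254 in cold, 38 and 64 at room temperature). The levels of the genes in this gate chose the cells, so those levels are given as a description and were not tested.

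The libraries were made with the 10x Chromium 3′ v3 chemistry from the stromal vascular fraction, the cells left after collagenase digestion of fat and loss of mature adipocytes, of the fourth inguinal depot, through which the ducts of the mammary gland run. All mice were 8-week-old C57BL/6, with no transgene or treatment named besides temperature: 2 libraries came from mice held for 24 h at 4 °C and 2 from mice held for 24 h at room temperature. The study's title concerns control of the thermogenic programme of adipocytes in cold by the ducts. The labels do not say whether a library held 1 animal or a pool, nor which sex. The p-values below therefore measure the spread between libraries, which may be technical.

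Luminal hormone-sensing cells line the mammary duct, sense oestrogen, progesterone and prolactin, and pass the signal to neighbouring cells through secreted ligands such as amphiregulin, Wnt4 and Rankl. Uroplakins are the membrane proteins that pave the surface of the bladder epithelium: Upk3a pairs with Upk1b, and Upk2 with Upk1a. Fibrinogen, the clotting protein known chiefly from liver, is built from an α chain (Fga), a β chain (Fgb) and a γ chain (Fgg), and all 3 genes lie side by side. In GENCODE annotation of GRCm38 they occupy chromosome 3, Fgg at 83007724 to 83015049 on the plus strand, Fga at 83026076 to 83033627 on the plus strand and Fgb at 83040141 to 83049863 on the minus strand. Upk3a lies on chromosome 15 at 85017141 to 85022547 on the plus strand.

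The start regions of these 4 genes are shown because Upk3a and Fgb define the cells, Fgg was found beside them, and Fga, located between Fgg and Fgb, was almost undetected. Each is the RefSeq sequence on GRCm38.p6 of 250 bases before to 50 bases after the gene's start. For Fga the start used lies downstream of the GENCODE start given above, whereas for Upk3a, Fgb and Fgg it is the same. The sequences run 5′ to 3′ on the gene's own strand, and capitals mark matches, on either strand, to the motifs searched. The motifs were TGANTCA (AP-1), TTCNNNGAA (STAT), TGTTTAC (FOXA) and GGTCA (the core of the oestrogen response element).
Upk3a, chr15:85016891-85017190, plus strand: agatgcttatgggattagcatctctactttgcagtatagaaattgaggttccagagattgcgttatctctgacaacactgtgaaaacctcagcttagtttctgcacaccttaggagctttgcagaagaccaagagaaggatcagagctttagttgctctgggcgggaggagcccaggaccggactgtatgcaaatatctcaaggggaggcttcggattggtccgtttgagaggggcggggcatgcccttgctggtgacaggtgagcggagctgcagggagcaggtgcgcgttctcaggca
Fgb, chr3:83049814-83050113, minus strand: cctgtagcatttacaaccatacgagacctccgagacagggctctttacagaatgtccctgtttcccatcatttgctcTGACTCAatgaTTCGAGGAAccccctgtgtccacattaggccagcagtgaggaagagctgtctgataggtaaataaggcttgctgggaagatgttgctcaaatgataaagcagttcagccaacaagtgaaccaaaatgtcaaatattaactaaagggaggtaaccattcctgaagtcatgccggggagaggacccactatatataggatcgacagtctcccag
Fgg, chr3:83007474-83007773, plus strand: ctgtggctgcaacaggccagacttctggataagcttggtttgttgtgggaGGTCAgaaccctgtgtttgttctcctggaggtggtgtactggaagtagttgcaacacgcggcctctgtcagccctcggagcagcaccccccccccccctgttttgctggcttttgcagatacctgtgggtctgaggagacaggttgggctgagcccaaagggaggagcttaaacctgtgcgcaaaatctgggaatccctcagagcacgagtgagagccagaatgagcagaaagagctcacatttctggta
Fga, chr3:83025903-83026202, plus strand: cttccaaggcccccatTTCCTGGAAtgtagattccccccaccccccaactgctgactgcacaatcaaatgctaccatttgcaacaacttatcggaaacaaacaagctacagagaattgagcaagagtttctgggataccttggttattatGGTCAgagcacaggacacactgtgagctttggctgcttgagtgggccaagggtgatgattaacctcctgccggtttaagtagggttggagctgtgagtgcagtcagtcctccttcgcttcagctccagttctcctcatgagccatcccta
The Fgb window held an AP-1 match, TGACTCA at bases 78 to 84, and a STAT match, TTCGAGGAA at bases 89 to 97. The Fgg window held GGTCA at bases 51 to 55, and the Fga window held a STAT match at bases 17 to 25 and GGTCA at bases 151 to 155. No letters searched were found in the Upk3a window, and no matches overlapped. Of 32544 RefSeq promoters of the same length, 7.79% held the AP-1 letters, 8.33% the STAT letters, 3.66% the FOXA letters and 40.5% GGTCA. A match is a stretch of letters and was not tested as a binding site.

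The libraries held 3871 to 6339 barcodes and 35198164 to 55160902 UMIs, and no 2 of them shared more than 10 barcodes, none of which was an Upk3a/Fgb cell in both. Room-temperature replicate 1 stood apart: it supplied 303 of the 609 cells, whereas the other room-temperature library supplied 33. The Upk3a/Fgb cells were deep, with median UMI counts of 21454 and 23564 in cold, against 22122 and 24570 in the room-temperature libraries. The other hormone-sensing cells had medians of 14775 and 14636 UMIs in cold and 13770 and 14443 at room temperature. Mitochondrial UMIs made up a median of 5.28% and 4.88% in cold, against 5.40% and 6.11% at room temperature. The summed counts behind the comparisons came to 3812961 and 3691805 UMIs in cold and 7874932 and 793452 UMIs at room temperature.

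The label was checked with genes that the gate did not read, and those of the luminal lineage were present. Foxa1, a pioneer factor that opens chromatin for the oestrogen receptor, stood at 327 and 339 CPM (counts scaled to the total UMIs of the summed cells) in cold and 348 and 413 CPM at room temperature. Gata3, the transcription factor of the luminal lineage, stood at 580 and 540 CPM in cold and 672 and 681 CPM at room temperature. The 9 basal and myoepithelial markers summed to 11.3 and 5.15 CPM in cold and to 15.0 and 5.04 CPM at room temperature. Of 7 adipocyte markers, Adipoq, Cidec and Lep were at 0 in all 4 libraries, and the whole list summed to 13.5 to 34.9 CPM.

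Transcripts of other cells were present at low levels. The 7 macrophage markers summed to 103 and 22.8 CPM in cold and to 122 and 56.7 CPM at room temperature, and the 6 endothelial markers to 14.7 and 5.15 CPM in cold and 12.7 and 7.56 CPM at room temperature. The 10 fibroblast markers summed to 58.0 and 121 CPM in cold and to 544 and 88.2 CPM at room temperature, so room-temperature replicate 1 was the highest. In the other hormone-sensing cells of that library, 38 in number, the same list reached 2293 CPM. A doublet score called 2 and 0 of the Upk3a/Fgb cells of the cold libraries and 15 and 0 of those of the room-temperature libraries; these cells were kept.

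Upk3a/Fgb cells made up 3.35% (95% exact binomial interval 2.82 to 3.95) and 4.50% (3.79 to 5.30) of all kept cells in the cold libraries, against 5.54% (4.95 to 6.18) and 1.05% (0.724 to 1.47) in the room-temperature libraries. The intervals cover counting error only. The room-temperature libraries thus lay on either side of both cold libraries. The means were 3.92 ± 0.813% in cold and 3.29 ± 3.17% at room temperature (SD, n = 2 each), a difference of 0.630 percentage points (exact two-sided permutation p = 1.00, where 0.333 is the smallest this design allows).

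Among hormone-sensing cells the Upk3a/Fgb cells were the minority in 3 of the 4 libraries. Their share was 29.8% (25.7 to 34.3) and 35.0% (30.3 to 40.0) in cold and 88.9% (85.0 to 92.0) and 34.0% (24.7 to 44.3) at room temperature. Room-temperature replicate 2 lay between the cold libraries, and only replicate 1 lay far from them. The means were 32.4 ± 3.69% in cold and 61.4 ± 38.8% at room temperature (SD, n = 2 each), a difference of -29.0 percentage points (exact two-sided permutation p = 0.667). Without room-temperature replicate 1 the difference was -1.59 points, and without replicate 2 it was -56.4 points. The total leaves out cells that met the receptor and keratin limits but reached 2 in Elf5, Kit, Csn3, Aldh1a3 and Wfdc18 together. Of those, 24.3% and 32.9% in cold and 82.5% and 24.0% at room temperature reached 1 in Upk3a and Fgb together.

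The amount of Upk3a and Fgb per cell ran over a wide scale, and the libraries filled it differently. The median Upk3a+Fgb level of the cells was 5.38 and 44.1 per 10000 UMIs in cold, against 55.1 and 13.6 at room temperature. In cold replicate 1, 90 cells had 1 to 10 per 10000 UMIs, 34 had 10 to 50 and 12 had 50 or more. Cold replicate 2 held 53, 16 and 68 cells in these 3 grades, room-temperature replicate 1 held 63, 79 and 161, and room-temperature replicate 2 held 12, 13 and 8. The grades were set after the levels had been seen. The cells of cold replicate 1 thus lay mostly in the lowest grade, whereas in each of the other libraries more cells lay above that grade than in it.

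**Figure D1:**
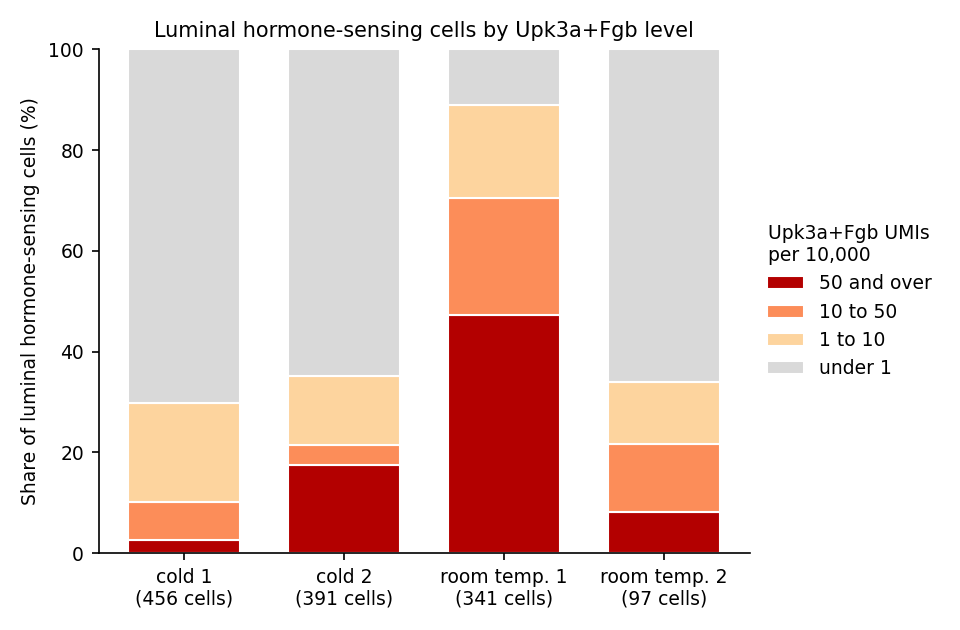
Share of luminal hormone-sensing cells (%, vertical axis, from 0) in 4 grades of Upk3a+Fgb UMIs per 10000 UMIs of the cell, for the 2 cold and the 2 room-temperature libraries; grey is the other hormone-sensing cells and the coloured parts are the Upk3a/Fgb cells. The darkest part, 50 or more per 10000, is 2.63% and 17.4% in cold, against 47.2% and 8.25% at room temperature.

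The lowest grade was also reached by some T cells. At 1 to 10 Upk3a+Fgb UMIs per 10000 lay 19.7% and 13.6% of hormone-sensing cells in cold and 18.5% and 12.4% at room temperature. T cells, which should lack both genes, reached that grade in 3.90% and 6.31% of cells in cold and in 14.3% and 1.69% at room temperature, at median depths of 4897 and 7180 UMIs in cold and 4410 and 7870 UMIs at room temperature. The gap to T cells was thus smallest in room-temperature replicate 1. At such depths 1 UMI is enough to reach the grade, whereas deeper cells need more. The T cells were also chosen to lack Krt8 and Krt18, so T cell barcodes that carried these luminal transcripts had been left out beforehand. The source of the Upk3a and Fgb UMIs in T cells was not tested. At 10 or more per 10000 lay 46 and 84 hormone-sensing cells in cold and 240 and 21 at room temperature, whereas T cells stood at 0% in 3 libraries and at 0.391% in room-temperature replicate 1. Just inside the gate, at 1 to 2 per 10000, lay 32 and 20 cells in cold and 13 and 7 at room temperature, and just outside it, with at least 1 UMI but under 1 per 10000, lay 62 and 52 cells in cold and 12 and 6 at room temperature.

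Upk3a and Fgb were mostly found in the same cells. Both were detected in 57.4% and 78.1% of the Upk3a/Fgb cells in cold and in 90.1% and 51.5% at room temperature. Summed over the cells, Upk3a stood at 1078 and 5052 CPM in cold and 4079 and 2584 CPM at room temperature, and Fgb at 650 and 2905 CPM in cold and 2396 and 1367 CPM at room temperature. Cold replicate 1 was the lowest library for both. In a sum over cells, fewer cells with a transcript and less transcript per cell cannot be told apart. The ratio of Upk3a to Fgb UMIs was 1.66 and 1.74 in cold and 1.70 and 1.89 at room temperature, close between libraries although the levels were not. Across single Upk3a/Fgb cells the rank correlation of the 2 genes was 0.0810 and 0.738 in cold (136 and 137 cells) and 0.596 and 0.366 at room temperature (303 and 33 cells), as a description of cells that share a library and were chosen by the sum of both genes.

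Of the partner chains, the γ chain of fibrinogen was present and the α chain was almost absent. Fgg, which the gate did not read, stood at 801 and 634 CPM in the Upk3a/Fgb cells in cold and 746 and 514 CPM at room temperature. In the other hormone-sensing cells it stood at 236 and 157 CPM in cold and 133 and 58.1 CPM at room temperature, and in T cells at 3.98 and 2.78 CPM in cold and 10.1 and 1.91 CPM at room temperature. It was detected in 86.8% and 75.2% of Upk3a/Fgb cells in cold and 79.9% and 81.8% at room temperature, against 53.8% and 44.5% of the other hormone-sensing cells in cold and 55.3% and 37.5% at room temperature. Fga gave 0 and 1 UMI in cold and 3 and 0 UMIs at room temperature. Cold and room-temperature libraries overlapped in Fgg (log2FC, the log2 fold change of cold over room temperature, 0.23, SE 0.25, edgeR quasi-likelihood adjusted p = 1.000).

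Among the uroplakins, Upk2 was detected in both hormone-sensing sets and was not higher in the Upk3a/Fgb cells. It stood at 60.8 and 46.0 CPM in Upk3a/Fgb cells in cold and 47.5 and 37.8 CPM at room temperature, against 78.2 and 92.0 CPM in the other hormone-sensing cells in cold and 97.1 and 54.2 CPM at room temperature. Upk1b, the known partner of Upk3a, did not exceed 2.62 CPM in any library, Upk1a did not exceed 1.05 CPM, and Upk3b was at 0. The hormone receptors of the gate, Prlr, Esr1 and Pgr, were each lower than in the other hormone-sensing cells of every library. Prlr, the prolactin receptor, stood at 5065 and 2888 CPM in Upk3a/Fgb cells in cold and 2206 and 3502 CPM at room temperature. The other hormone-sensing cells had 5793 and 5885 CPM in cold and 4235 and 4789 CPM at room temperature. Esr1, the oestrogen receptor, stood at 96.5 and 84.2 CPM in Upk3a/Fgb cells in cold and 108 and 79.4 CPM at room temperature. For it the other set had 108 and 126 CPM in cold and 137 and 82.5 CPM at room temperature. Pgr, the progesterone receptor, stood at 68.5 and 53.9 CPM in Upk3a/Fgb cells in cold and 87.6 and 149 CPM at room temperature. Its levels in the other set were 105 and 104 CPM in cold and 122 and 229 CPM at room temperature. Cited1, a transcriptional coactivator of the oestrogen receptor, stood at 1862 and 2017 CPM in Upk3a/Fgb cells in cold and 2315 and 2561 CPM at room temperature, and was higher there than in the other hormone-sensing cells of each library (1432 and 1065 CPM in cold, and at room temperature 1715 and 1730 CPM).

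Beyond the gate, Pir, Atf3 and several genes of dividing cells were the furthest above, and Fxyd2 and Tph1 the furthest below, their levels in the other hormone-sensing cells. Of 3015 genes with a mean of at least 50 CPM in either set, 404 were higher and 987 lower in the Upk3a/Fgb cells of all 4 libraries, together 46.1%. Because the sets were split by the level of 2 of their own genes, these differences are a description, and the greater depth of the Upk3a/Fgb cells and the 38 other hormone-sensing cells of room-temperature replicate 1 stand behind all of them. The genes with the largest mean log2 ratios (pseudocount 5 CPM) are named.

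On the higher side stood Pir, which encodes pirin, an iron-containing nuclear protein, at 151 and 325 CPM in Upk3a/Fgb cells in cold and 244 and 118 CPM at room temperature, against 28.6 and 12.2 CPM in the other hormone-sensing cells in cold and 29.6 and 8.64 CPM at room temperature (mean log2 ratio 3.12). Itih2, a heavy chain of the hyaluronan-binding inter-α-trypsin inhibitor (mean log2 ratio 2.41), Mt2, a metal-binding metallothionein (2.33), Crym, a thyroid hormone-binding protein (2.17), Sv2c, a vesicle glycoprotein (2.43), and Fgg (2.30) were also among them. Atf3, a stress-induced transcription factor, had a mean log2 ratio of 2.82, and Zfp36, which speeds the decay of inflammatory mRNAs, one of 1.95. The 20 genes of the immediate early and dissociation list, which the preparation of cells can also switch on, summed to 10165 and 15844 CPM in Upk3a/Fgb cells in cold and 14711 and 10341 CPM at room temperature, against 5817 and 8361 CPM in the other hormone-sensing cells in cold and 3042 and 4020 CPM at room temperature; the part of the preparation in these values was not tested.

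Genes of dividing cells were also among the 15 with the largest ratios. Ube2c, Cdk1, Birc5, Pclaf, Top2a, Stmn1 and Cks2, which act in DNA replication, chromosome segregation or mitotic control, had mean log2 ratios of 3.12, 2.83, 2.59, 2.58, 2.54, 2.48 and 1.96. The cell cycle list of 18 genes summed to 460 and 1698 CPM in Upk3a/Fgb cells in cold and 1726 and 868 CPM at room temperature, against 293 and 375 CPM in the other hormone-sensing cells in cold and 482 and 207 CPM at room temperature. Cold replicate 1, whose cells had the least Upk3a and Fgb, was the lowest of the 4.

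On the lower side, Fxyd2, the γ subunit of the sodium-potassium pump, stood at 483 and 475 CPM in Upk3a/Fgb cells in cold and 123 and 1199 CPM at room temperature, against 2122 and 2630 CPM in the other hormone-sensing cells in cold and 1093 and 2947 CPM at room temperature (mean log2 ratio -2.25). Tph1, which acts in the making of serotonin (-2.21, but with 6.22 against 6.58 CPM in room-temperature replicate 1), Ido1, which turns tryptophan into kynurenine (-1.69), Slc5a6, a vitamin transporter (-1.33), Tuft1 (-1.24) and Glul, glutamine synthetase (-1.24), were lower too, as was Snhg11 (-1.30). Acta2, Sparc and Postn had ratios of -1.82, -1.69 and -1.48; they are genes of smooth muscle, basal or stromal cells, and the fibroblast markers were likewise higher in the other hormone-sensing cells than in the Upk3a/Fgb cells in 3 of the 4 libraries.

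**Figure D2:**
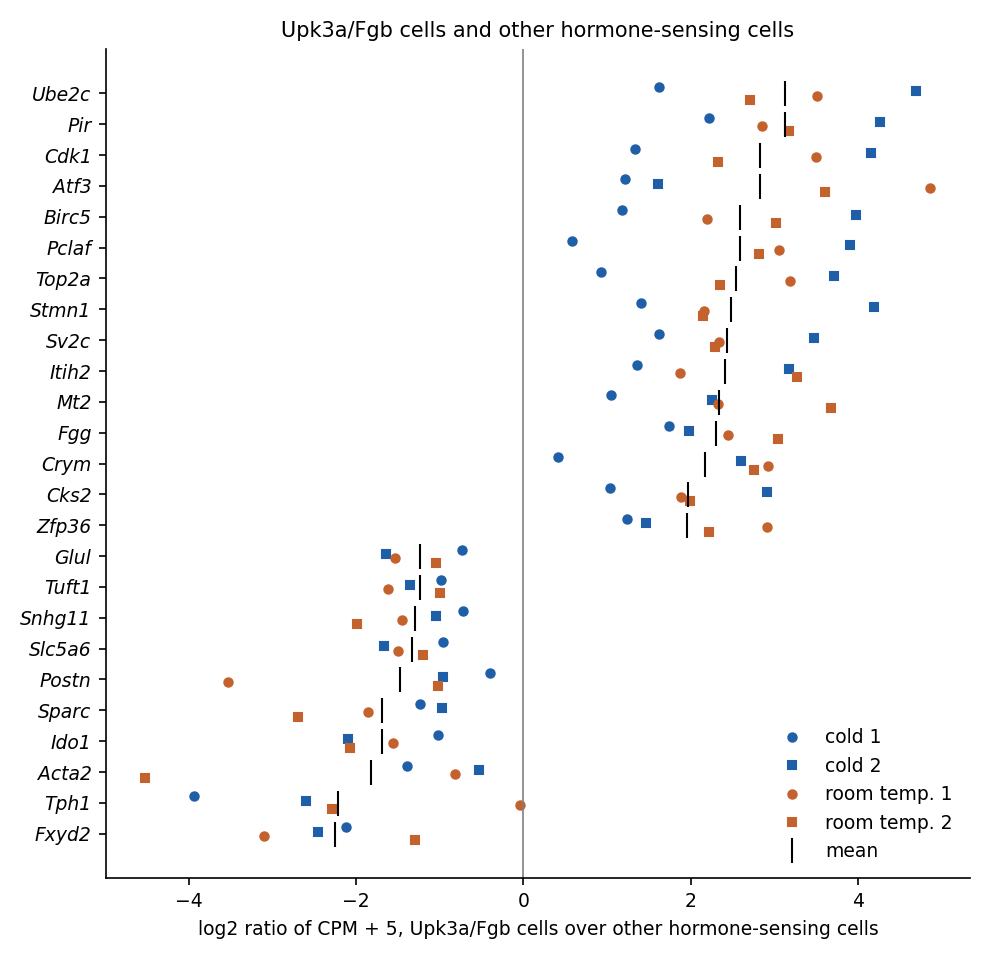
log2 ratio of CPM + 5 in Upk3a/Fgb cells over the other hormone-sensing cells (horizontal axis) for the 15 genes with the largest and the 10 with the smallest mean ratio among genes of the same sign in all 4 libraries; each point is a library and the bar is the mean. Pir and Ube2c lead on the right with a mean of 3.12 each, Fxyd2 on the left with -2.25, and cold replicate 1 is the lowest point of every cell cycle gene.

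Several of these differences followed the amount of Upk3a and Fgb in steps rather than at the gate. Genes for this view were picked after their values had been seen. Pir stood at 28.6, 66.9, 183 and 676 CPM over the 4 grades from under 1 to 50 or more in cold replicate 1, at 12.2, 46.6, 108 and 556 CPM in cold replicate 2, at 29.6, 65.0, 158 and 358 CPM in room-temperature replicate 1 and at 8.64, 13.1, 42.9 and 375 CPM in room-temperature replicate 2. Fxyd2 ran the other way, with 2122, 675, 140 and 14.5 CPM in cold replicate 1, 2630, 1189, 113 and 75.8 CPM in cold replicate 2, 1093, 394, 100 and 17.3 CPM in room-temperature replicate 1 and 2947, 2092, 965 and 197 CPM in room-temperature replicate 2. Both genes were ordered by grade in each of the 4 libraries.

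Glul was ordered in the same way in every library, with 1417 CPM in the lowest and 174 CPM in the highest grade of cold replicate 1 and 1238 and 265 CPM in the same grades of room-temperature replicate 1. Slc12a2, the sodium-potassium-chloride cotransporter, stood at 4471 and 1085 CPM in the lowest and highest grades of cold replicate 1 and at 4043 and 794 CPM in those of room-temperature replicate 1. Mt1, the other metallothionein, was at 1848 and 3107 CPM in the highest grade in cold and 4415 and 3161 CPM at room temperature, against 534 and 526 CPM in the lowest grade in cold and 410 and 261 CPM at room temperature. Fgg did not follow the scale to its end in 3 libraries: it peaked in the grade of 10 to 50 at 1289 and 960 CPM in cold and 837 CPM in room-temperature replicate 2, and in the grade of 50 or more, at 995 CPM, in room-temperature replicate 1. The highest grade rests on 12 and 68 cells in cold and 161 and 8 cells at room temperature.

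**Figure D3:**
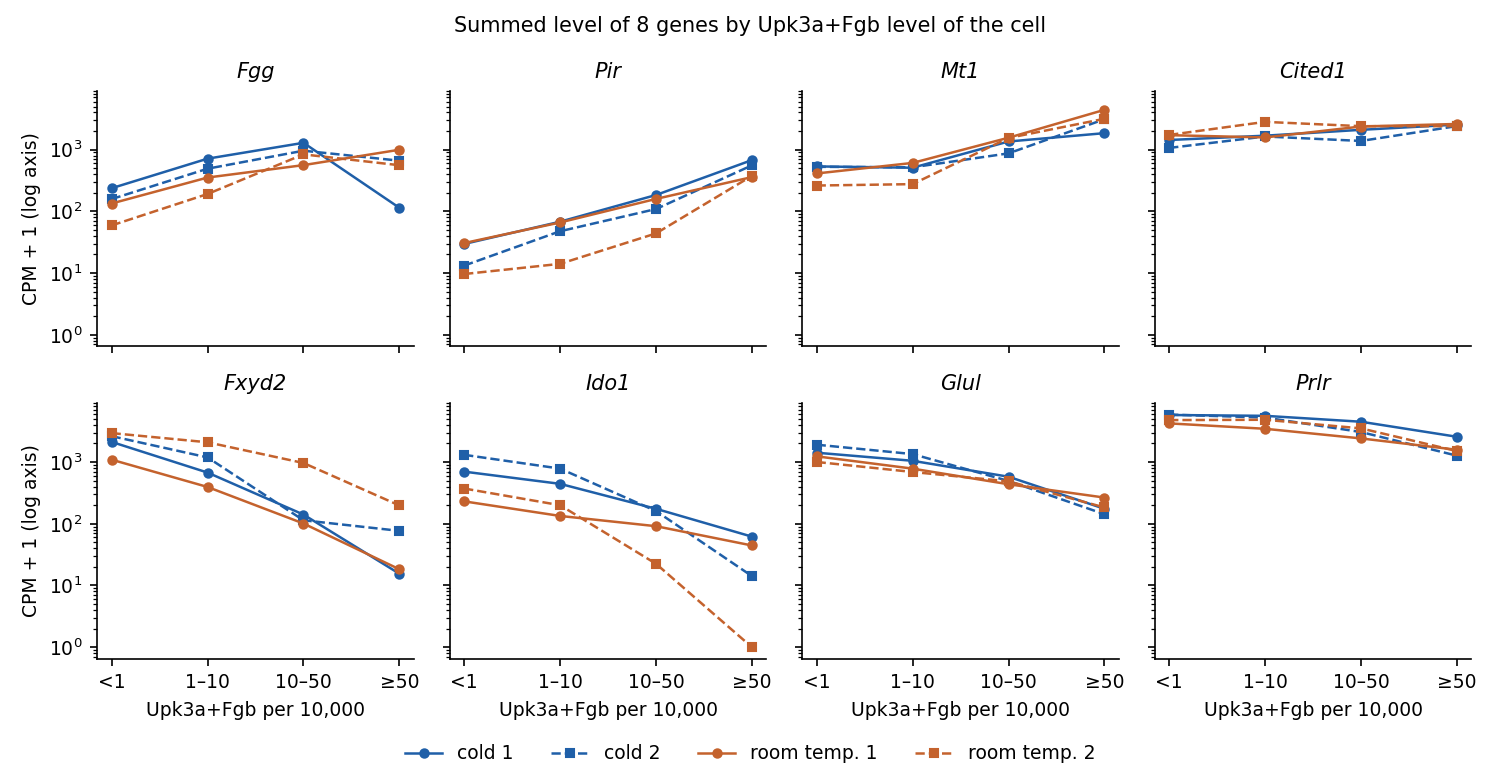
Summed level of 8 genes (CPM + 1, log axis) in hormone-sensing cells over 4 grades of Upk3a+Fgb UMIs per 10000 (horizontal axis), 1 line per library, solid for replicate 1 and dashed for replicate 2. Pir is highest and Fxyd2, Ido1, Glul and Prlr are lowest in the grade of 50 or more in all 4 libraries.

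The design asks what 24 h of cold did in these cells. Of 10862 genes tested on counts summed per library, the edgeR quasi-likelihood test called 0 at an adjusted p under 0.05 (0% called), 431 had an unadjusted p under 0.05 (3.97%), and DESeq2 called 7. Both cold libraries lay above both room-temperature libraries in 1606 genes (14.8%) and below them in 2139 genes (19.7%). The genes with the smallest p-values in each direction and a set of genes chosen by name are given as values.

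Ido1 separated most clearly. It stood at 342 and 303 CPM in cold, against 75.0 and 84.4 CPM at room temperature (log2FC 2.08, SE 0.17, edgeR adjusted p = 0.115). Ido1 also varied with the amount of Upk3a and Fgb, and the libraries differ in that amount, so its level is given within grades: at 1 to 10 per 10000 it was 443 and 783 CPM in cold, against 133 and 199 CPM at room temperature; at 10 to 50 it was 174 and 160 CPM in cold, against 90.4 and 21.5 CPM at room temperature; at 50 or more it was 60.9 and 13.2 CPM in cold, against 43.5 and 0 CPM at room temperature. The groups did not overlap in the lower pair of these grades and overlapped in the highest. With only the cells of 10 or more per 10000, an alternative added after seeing the data, its log2 fold change was 1.10. In the other hormone-sensing cells Ido1 stood at 699 and 1310 CPM in cold and 230 and 372 CPM at room temperature, and the difference of the cold effect between the 2 cell sets was 0.27 (SE 0.31, edgeR adjusted p = 0.997).

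Nrg4, a ligand of the EGF family that binds ErbB4, stood at 355 and 144 CPM in cold, against 39.7 and 36.5 CPM at room temperature (log2FC 2.73, SE 0.44, edgeR adjusted p = 0.987). At 1 to 10 Upk3a+Fgb per 10000 it was 409 and 340 CPM in cold, against 88.6 and 65.4 CPM at room temperature, and at 10 to 50 it was 319 and 165 CPM in cold, against at most 48.9 CPM at room temperature. In the highest grade it was 55.1 and 8.14 CPM in cold and 15.0 and 9.62 CPM at room temperature, where the groups overlapped. The other hormone-sensing cells had 393 and 301 CPM in cold and 83.9 and 104 CPM at room temperature. Without cold replicate 2, Nrg4 (log2FC 3.25, edgeR adjusted p = 0.00517) and Ido1 (2.18, adjusted p = 0.0217) passed the threshold. Without cold replicate 1, Nrg4 had a log2FC of 1.93 (edgeR adjusted p = 0.0966) and Ido1 one of 1.99 (adjusted p = 0.0584). With either room-temperature library left out neither passed: Ido1 had edgeR adjusted p-values of 0.0662 without replicate 1 and 0.134 without replicate 2, and Nrg4 0.136 and 0.582 in the same order.

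Of the other genes with small p-values and higher values in cold, Dgat2, an enzyme of triglyceride synthesis, stood at 189 and 127 CPM in cold, against 66.5 and 58.0 CPM at room temperature (log2FC 1.36, SE 0.24). Ppfibp2, the scaffold protein liprin-β2, stood at 170 and 120 CPM in cold, against 58.7 and 45.4 CPM at room temperature (1.48, SE 0.25). Snhg11 stood at 183 and 169 CPM in cold, against 94.6 and 92.0 CPM at room temperature (0.96, SE 0.16). In all 3 the groups were apart, and edgeR gave each an adjusted p of 0.987. In the other hormone-sensing cells Snhg11 overlapped, with 305 and 353 CPM in cold and 268 and 380 CPM at room temperature. Dgat2 and Ppfibp2 were higher in cold there too, with groups apart.

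Lower values in cold were found for Slc38a2, a transporter of neutral amino acids, at 110 and 148 CPM in cold, against 276 and 263 CPM at room temperature (log2FC -1.02, SE 0.20, edgeR adjusted p = 0.992). Apoc1, an apolipoprotein, stood at 85.2 and 58.5 CPM in cold, against 150 and 238 CPM at room temperature (log2FC -1.35). Myc, the growth-promoting transcription factor, stood at 10.5 and 18.1 CPM in cold, against 38.1 and 36.5 CPM at room temperature (-1.35). Irx3, a homeobox factor, had a log2 fold change of -0.96, and Gdpd1, a phospholipid hydrolase, one of -0.83, with groups apart for both. In the other hormone-sensing cells Slc38a2 overlapped, with 119 and 138 CPM in cold and 137 and 189 CPM at room temperature. Myc overlapped there too, whereas Apoc1, Irx3 and Gdpd1 were lower in cold with groups apart. DESeq2 called Ido1, Nrg4, Ppfibp2, Dgat2 and the haemoglobin gene Hba-a1 as higher in cold, and Apoc1 and Slc38a2 as lower. Hba-a1 stood at 142 and 59.6 CPM in cold, against 22.9 and 13.9 CPM at room temperature, and the β-globin gene Hbb-bs at 1.57 and 80.2 CPM in cold, against 3.17 and 1.26 CPM at room temperature. The other hormone-sensing cells ran the same way in Hba-a1, with 223 and 115 CPM in cold, against 46.1 and 33.0 CPM at room temperature. In T cells Hba-a1 ran the other way, with 0.996 and 45.5 CPM in cold, against 351 and 196 CPM at room temperature. The part of red blood cell RNA in these values was not tested.

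**Figure D4:**
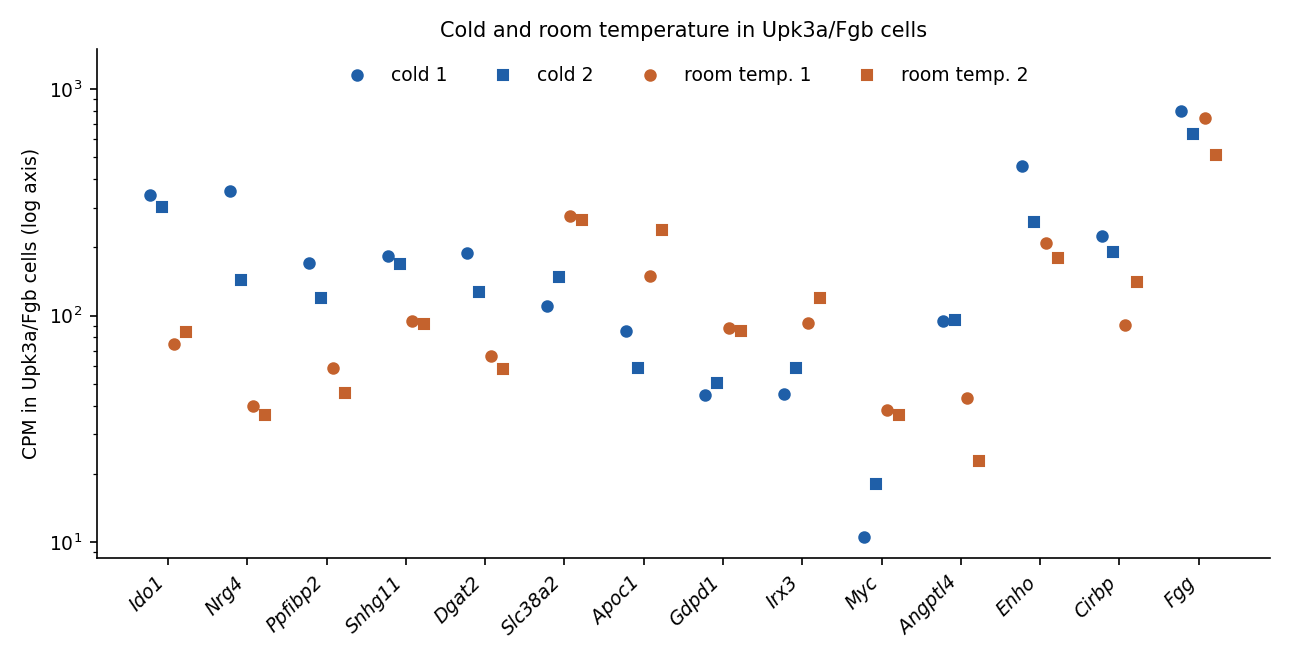
CPM in Upk3a/Fgb cells (log axis) of the 5 genes with the smallest p-values and higher values in cold, the 5 with lower values in cold, and Angptl4, Enho, Cirbp and Fgg, in the 2 cold (blue) and 2 room-temperature (orange) libraries. The colours are apart for all genes shown except Fgg; no gene passed the adjusted threshold.

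Secreted factors of the duct were of interest from the title. Of 8 tested members of that list, 0 were called by edgeR. Both cold libraries lay above both room-temperature libraries in 5 and below them in 1, beside 14.8% and 19.7% over all genes. The median log2 fold change was 0.72, against -0.01 over all genes tested. In 3 of the 8, but in none of those 5, even the highest library lay under 5% of the level in the non-epithelial cell set that held most. Lrg1 cleared this limit in cold replicate 1 only, as endothelial cells averaged 506 CPM of it. Angptl4, an inhibitor of lipoprotein lipase, stood at 94.4 and 95.1 CPM in cold, against 43.4 and 22.7 CPM at room temperature (log2FC 1.42, SE 0.29). Enho, which encodes the peptide adropin, stood at 456 and 259 CPM in cold, against 209 and 179 CPM at room temperature (0.92, SE 0.29). Lrg1, a secreted leucine-rich glycoprotein, stood at 109 and 24.4 CPM in cold, against 17.7 and 7.56 CPM at room temperature (2.18, SE 0.72), so 1 cold library gave most of its difference. Lcn2, lipocalin 2, was low, at 9.18 and 8.94 CPM in cold, against 6.48 and 6.30 CPM at room temperature. In room-temperature replicate 2 its level rests on 5 UMIs. Far more Lcn2 was held by the alveolar cells, the luminal cells that reached the Elf5 to Wfdc18 limit but not the receptor limit. They had 2635 and 3196 CPM in cold and 2605 and 1400 CPM at room temperature, and the 5% limit did not cover them. B cells held 8.68 and 8.56 CPM of Lcn2 in cold and 2.79 and 2.94 CPM at room temperature. Fibroblasts held 3.71 and 17.1 CPM in cold and 3.04 and 9.81 CPM at room temperature. The part of free RNA in the Lcn2 values was not tested.

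The paracrine ligands of hormone-sensing cells overlapped between the groups. Areg, the EGF receptor ligand amphiregulin, stood at 431 and 1000 CPM in cold and 786 and 1328 CPM at room temperature (log2FC -0.50, SE 0.41). Wnt4 stood at 624 and 402 CPM in cold and 294 and 427 CPM at room temperature (0.58, SE 0.27). Tnfsf11, which encodes Rankl, was at 0.525 and 2.71 CPM in cold and 1.14 and 51.7 CPM at room temperature, so room-temperature replicate 2 alone held it in quantity. Cirbp, a cold-inducible RNA-binding protein, stood at 225 and 190 CPM in cold, against 91.0 and 141 CPM at room temperature (0.93, SE 0.23), and its relative Rbm3 overlapped, with 609 and 939 CPM in cold and 684 and 541 CPM at room temperature (0.38, SE 0.26).

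Of 15 circadian genes tested, 7 had both cold libraries higher and 3 both lower, where the shares over all genes were 14.8% and 19.7%. Their median log2 fold change was 0.53, with 9 above 0 and 6 below. The 7 were Per2, Per3, Nr1d1, Dbp, Tef, Bhlhe41 and Clock. Dbp, a clock-output transcription factor, stood at 86.8 and 35.2 CPM in cold, against 24.6 and 15.1 CPM at room temperature (log2FC 1.52), and Bhlhe41, a repressor of the clock, at 464 and 215 CPM in cold, against 128 and 142 CPM at room temperature (1.39). Arntl, Cry1 and Nfil3 were the 3 with lower values in cold. The labels give no time of day for the dissections.

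Of 17 oxidation and thermogenesis genes tested, 8 had both cold libraries higher and 0 both lower, beside the same 14.8% and 19.7% over all genes (median log2 fold change 0.29). Hadhb, a subunit of the mitochondrial trifunctional protein, stood at 144 and 131 CPM in cold, against 99.6 and 105 CPM at room temperature (0.48). Of 20 cholesterol and fatty acid synthesis genes tested, 1 had both cold libraries higher and 10 both lower (median -0.49). Fasn, fatty acid synthase, stood at 18.9 and 32.5 CPM in cold, against 37.8 and 40.3 CPM at room temperature. Srebf1, a regulator of lipid synthesis, was the 1 with higher values in cold.

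Of 10 tested cytokine and NF-κB genes, edgeR called 0, and 0 had both cold libraries higher and 7 both lower, a side on which 19.7% of all genes lay (median log2 fold change -1.17). Nfkbia, the inhibitor of NF-κB that NF-κB itself induces, stood at 81.0 and 137 CPM in cold, against 193 and 204 CPM at room temperature (-0.81), and Nfkbiz at 24.9 and 30.9 CPM in cold, against 54.1 and 101 CPM at room temperature (-1.34). Cxcl2 had a log2 fold change of -2.13 and lay under 5% of its level in the cell set that held most of it. Of 13 interferon-response genes, 0 had both cold libraries higher and 8 both lower (median -0.27), while 4 had a log2 fold change above 0 and 9 below. The 8 included Irf1, a transcription factor of that response, at 49.0 and 59.3 CPM in cold, against 84.8 and 105 CPM at room temperature (-0.73). Of 5 tested MHC class II genes 4 had both cold libraries lower, but all 5 lay under that 5% limit.

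In the list of mucins and apical secretory genes, Dmbt1, a secreted scavenger-receptor glycoprotein, stood at 257 and 215 CPM in cold, against 69.2 and 25.2 CPM at room temperature (log2FC 2.20, SE 0.40). Wfdc2, a secreted protein of the whey acidic protein family, stood at 3952 and 2659 CPM in cold, against 1946 and 1220 CPM at room temperature (1.10). Of 15 keratin and junction genes, 5 had both cold libraries higher and 1 both lower, with 14.8% and 19.7% over all genes and a list median of 0.13; the tight-junction gene Cldn4 was one of the 5, with 565 and 494 CPM in cold, against 310 and 407 CPM at room temperature. Of 7 MHC class I genes, 4 had both cold libraries higher and 1 both lower (median 0.37), H2-K1 with 1810 and 1788 CPM in cold, against 1465 and 1365 CPM at room temperature.

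Of 18 genes of hormone-sensing identity, 2 had both cold libraries higher and 4 both lower (median log2 fold change -0.08). Over all genes 14.8% had both cold libraries higher and 19.7% both lower, and these shares stand beside every list in this paragraph. Ly6a, a surface antigen of the identity list, was the widest, at 1071 and 933 CPM in cold, against 558 and 124 CPM at room temperature. Of 12 oestrogen and progesterone targets, 0 had both cold libraries higher and 2 both lower (-0.02), and of 8 prolactin and STAT5 targets 0 and 3 (-0.37). Oxidative phosphorylation had 2 and 3 of 23 (-0.03), hypoxia and glycolysis 0 and 0 of 14 (-0.01), the glucocorticoid response 2 and 3 of 15 (-0.01) and heat shock chaperones 1 and 5 of 14 (-0.17). The cell cycle list had 0 and 2 of 18, with a median of -0.76, and cold replicate 1 was the lowest library for its sum.

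The cold effect was then set against that in the other hormone-sensing cells of the same libraries. Of 11533 genes tested for the difference, the edgeR quasi-likelihood test, with the library as a block, called 3 (0.0260%), and 488 had an unadjusted p under 0.05 (4.23%). All 3 calls were lost without room-temperature replicate 1, in which the other hormone-sensing cells numbered 38 and held 2293 CPM of fibroblast markers.

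Atf3 was high in the Upk3a/Fgb cells in both groups and low in the other hormone-sensing cells at room temperature. It stood at 658 and 1244 CPM in Upk3a/Fgb cells in cold and 1096 and 839 CPM at room temperature (log2FC 0.02, SE 0.32), against 281 and 405 CPM in the other hormone-sensing cells in cold and 32.9 and 64.4 CPM at room temperature (2.80, SE 0.29). The difference of the cold effects was -2.80 (SE 0.31, edgeR adjusted p = 0.00766), and without room-temperature replicate 1 it was -2.31 (edgeR adjusted p = 0.112). Atf3 also varied with the Upk3a+Fgb grade, with 445 and 536 CPM in cold and 158 and 412 CPM at room temperature in the grade of 1 to 10.

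Socs3, the cytokine-induced inhibitor of JAK-STAT signalling, followed the same arrangement. It stood at 595 and 859 CPM in Upk3a/Fgb cells in cold and 966 and 786 CPM at room temperature (log2FC -0.23), against 318 and 498 CPM in the other hormone-sensing cells in cold and 214 and 200 CPM at room temperature (1.03). The difference of the cold effects was -1.23 (SE 0.18, edgeR adjusted p = 0.0483), and without room-temperature replicate 1 it was -1.16 (edgeR adjusted p = 0.648).

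Cenpf, a kinetochore protein of dividing cells, stood at 6.82 and 59.6 CPM in Upk3a/Fgb cells in cold and 84.1 and 21.4 CPM at room temperature (log2FC -0.81), against 0.316 and 1.45 CPM in the other hormone-sensing cells in cold and 41.2 and 6.29 CPM at room temperature (-4.56). In the other hormone-sensing cells these levels rest on 2 and 7 UMIs in cold and 25 and 8 UMIs at room temperature. The difference of the cold effects was 3.93 (SE 0.49, edgeR adjusted p = 0.0153), and without room-temperature replicate 1 it was 3.32 (edgeR adjusted p = 0.746).

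**Figure D5:**
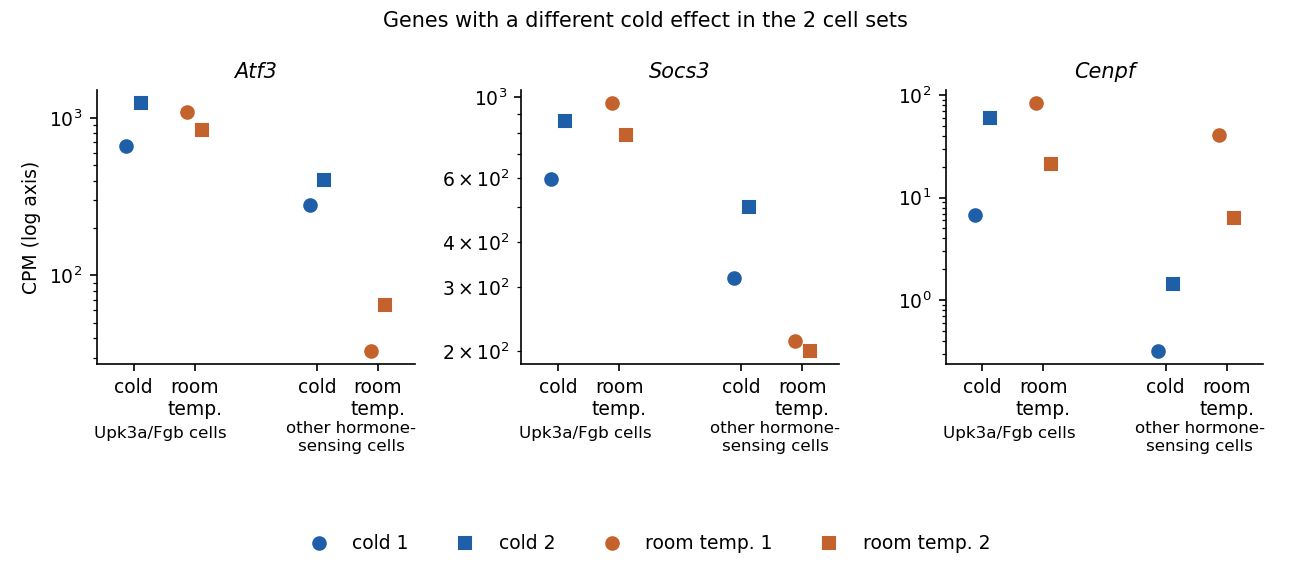
CPM (log axis) of Atf3, Socs3 and Cenpf in the 2 cold and 2 room-temperature libraries, for Upk3a/Fgb cells (left pair in each panel) and the other hormone-sensing cells (right pair). Cold and room temperature overlap in the Upk3a/Fgb cells and are apart in the other hormone-sensing cells for all 3 genes.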

How the data were processed

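Cells of 4 libraries were analysed from the UMI counts per gene and barcode that the authors deposited; Cell Ranger 3.0.2 made these counts, as the submitters' processing notes and, per the file headers, its output format show, and the notes also name mm10, GRCm38 and Seurat. No barcode of the deposited matrices, which list 31053 genes, has under 500 UMIs, so free RNA from empty droplets was not measured. A cell needed 500 detected genes and less than 15% mitochondrial UMIs. No clustering was used. The T cell, B cell, macrophage, fibroblast and endothelial sets were gated on their own markers and on the absence of Krt8 and Krt18 UMIs. Doublets were scored with Scrublet (scanpy 1.11.5) at 0.8% per 1000 cells and left out only as an alternative. Counts were summed per library and cell set and tested with edgeR 4.0.16 in R 4.3.3: TMM, filterByExpr, two-sided quasi-likelihood F-test, Benjamini-Hochberg adjustment at 0.05 over all genes tested. The difference between cell sets was an interaction term in a fit with library as block. Both fits were tested on simulated data.

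Named are the 5 smallest p-values each way among genes that average 20 CPM or more and whose groups do not overlap, the called interactions, genes fixed by name, and list members chosen for illustration after their values were seen. The members, lists and tests were chosen with earlier results of these data known. Alternatives were RLE scaling, DESeq2 1.42.0, doublets left out, no low-count filter, at least 2 UMIs of Upk3a+Fgb, thinning to 3000 UMIs per cell, a looser cell filter (200 genes, 25% mitochondrial), leukocytes left out of the total for shares, a replicate block and leaving out each library. Gene positions are from GENCODE M21, which matched 63 of 63 identifiers.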

Additional observations from a re-analysis of the deposited data

Results flagged for a closer look

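The difference of the cold effect between Upk3a/Fgb cells and the other hormone-sensing cells, tested as an interaction, passed the edgeR adjusted threshold for 3 genes: Cenpf (3.93), Atf3 (-2.80) and Socs3 (-1.23), on the log2 scale. In each, cold and room temperature overlapped in the Upk3a/Fgb cells and were apart in the other hormone-sensing cells. The other hormone-sensing cells were 320 and 254 in cold and 38 and 64 at room temperature. Without room-temperature replicate 1 none of the 3 passed (edgeR adjusted p = 0.746 for Cenpf, 0.112 for Atf3 and 0.648 for Socs3). The Socs3 call was also lost with RLE scaling (edgeR adjusted p = 0.0589) and the Cenpf call with thinned cells (0.479).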

How the results depend on the processing

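The count of genes called in the cold comparison, 0 by edgeR, was also 0 with a replicate block, RLE scaling, doublets left out, at least 2 UMIs of Upk3a+Fgb, thinned cells, the looser cell filter and, added after seeing the data, only cells of 10 or more Upk3a+Fgb per 10000 UMIs. It was 7 by DESeq2 and 222 without the low-count filter, of which 24 genes were not tested otherwise; leaving out 1 library gave 0 to 7. The count of interactions, 3, was 65 without the low-count filter, 5 without doublets and 8 with thinned cells, and 1 to 102 with 1 library left out: 60 and 102 without the cold libraries and 1 and 5 without the room-temperature libraries. With a library left out, the lone library of its group is assumed to vary like the others; the cause of these shifts was not tested.

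Replicate numbers were not taken as pairs, since the labels name no shared batch. Same-numbered libraries deviated from their group means with a correlation of -0.204 over 10862 genes. With 2 libraries per group that value cannot decide whether a pairing exists. Crossing the numbers, an alternative added after seeing the data, gave 24 calls. Values of single genes that turned sign were Fgg (-0.04) and Tnfsf11 (0.50) without room-temperature replicate 2, within leave-one-out ranges of -0.04 to 0.56 and of -5.10 to 0.50, and Upk2 at -0.17 with only cells of 10 or more per 10000 UMIs; of the other values under an alternative, 281 kept their direction and side of the threshold, 31 passed it newly and 8 no longer did. The Socs3 interaction lost its call with RLE scaling (-1.23), thinned cells (-1.17), the higher Upk3a+Fgb limit (-1.09) and without room-temperature replicate 2 (-1.34), and Cenpf with thinned cells (4.88). The difference in the share of all kept cells ran from -1.61 to 2.87 percentage points with 1 library left out and was -0.582 at the higher limit, and that in the share of hormone-sensing cells ran from -56.4 to -1.59. Room-temperature replicate 2 rests on 33 cells and 793452 UMIs.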
